A study of Mus musculus with 7 samples.

Results

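The collagen genes of the mouse spleen were taken as all protein-coding genes whose GENCODE M21 symbol reads Col, a number, the letter a and a number. There were 44 of them among the 55414 genes of the deposited count table. Of these, 41 had at least 1 read, 38 had 10 or more reads over all libraries and are described here, and 31 passed edgeR's filter on low counts and were tested. Spleen libraries came from wild type mice (WT, labelled C57BL/6N, n = 3 libraries) and from Fpr2KO mice (n = 4 libraries), which lack the formyl peptide receptor gene Fpr2. Polyadenylated RNA was sequenced from whole spleen, with no treatment or time point named. The labels do not state the animals' age or sex, the strain behind Fpr2KO, the deleted allele or whether each replicate was a separate animal. The p-values therefore reflect variation among these libraries, part of which may be technical.

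Collagens are the main structural proteins of the extracellular matrix. Each molecule is a triple helix of 3 alpha chains, and the chains of one type are encoded by separate genes. In the spleen, fibroblastic reticular cells wrap collagen fibres into the reticular mesh that carries lymphocytes through the white pulp. The capsule and trabeculae hold dense type I and III fibres, and type IV collagen lies in the basement membranes of vessels. Fibrillar collagens give tensile strength, type IV forms sheets, type VI forms beaded filaments around cells, and the FACIT collagens sit on the surface of fibrils.

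Libraries held between 14968605 and 18692809 counts, of which collagen genes took between 0.0515% and 0.0892%. Levels are given as CPM, counts relative to library size, after TMM scaling, edgeR's correction for library composition. Fpr2 had 537, 479 and 477 reads in WT replicates 1 to 3 and 0 reads in each of the 4 Fpr2KO libraries. The labelled tissue carried its defining genes, with the B cell gene Cd79a between 520.5 and 634.5 CPM and the splenic mesenchyme gene Tlx1 between 18.9 and 38.6 CPM. Several libraries carried markers of tissue that lies beside the spleen. The summed CPM of 20 pancreatic acinar genes was 1096 and 622.7 in Fpr2KO replicates 1 and 2, 41.8 to 43.4 in the other Fpr2KO libraries and 26.8 to 51.1 in WT, where 4 of the 20 genes had 0 reads in every library. The sum of 10 fat cell genes was 54.4, 49.5 and 96.6 in WT replicates 1 to 3 and 37.6 to 43.4 in Fpr2KO. Every WT sum thus lay above every Fpr2KO sum. In WT replicates 1 and 2 the sum came mostly from Fabp4 (17.5 and 15.7 CPM) and Lipe (32.9 and 32.8 CPM). Adipoq had 0.0670, 0.262 and 4 CPM in WT replicates 1 to 3 and 0.119 to 0.521 in Fpr2KO. For Adipoq only WT replicate 3 thus stood above the Fpr2KO libraries. The 4 tested genes, Fabp4, Lipe, Cfd and Car3, were all fitted lower in Fpr2KO, and 0 passed edgeR's test. Cfd and Car3 had 13.3 and 18.0 CPM in WT replicate 3, and at most 2.15 CPM in any other library. The 7 mesothelial genes, which mark the cells covering the capsule, summed to 23.2 to 28.7 CPM in WT, to 16.4, 24.1 and 23.2 in Fpr2KO replicates 1 to 3, and to 51.6 in Fpr2KO replicate 4, where each of the 7 had its highest value.

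The gene starts of the type IV chains are shown first, because these genes lie head to head and one such pair had the highest correlation among the 7 chain pairs compared below. Sequences are those of RefSeq on GRCm38.p6, whose table matched 35 of the 44 genes in 38 windows. Col4a1 (chromosome 8, 11198423 to 11312826, minus strand) and Col4a2 (chromosome 8, 11312805 to 11449287, plus strand) have first exons that face each other and share 22 bases at chr8:11312805-11312826. They read as follows on the strand of each gene, with the GC box GGGCGG, read on either strand, in capitals.
Col4a2: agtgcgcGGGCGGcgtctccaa
Col4a1: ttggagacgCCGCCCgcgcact
The starts of Col4a4 and Col4a3 also face each other, 71 bases apart, at chr1:82586850-82586920. These bases are given on the plus strand, the strand of Col4a3, and hold none of the 3 motifs searched below.
Col4a3: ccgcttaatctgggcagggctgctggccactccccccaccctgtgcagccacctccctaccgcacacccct
The starts of Col4a6 and Col4a5 on chromosome X lie 1308 bases apart.

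Upstream bases are shown for a further pair of members, Col5a1, whose level varied most among the 12 highest collagen genes, and Col6a5, which had the lowest p of all collagen genes. Each run is the 250 bases before the RefSeq start on the strand of the gene, at chr2:27886175-27886424 (plus) and chr9:105960644-105960893 (minus). Capitals mark matches to 3 motifs on either strand, CCAAT, the GC box GGGCGG and TATAAA.
Col5a1: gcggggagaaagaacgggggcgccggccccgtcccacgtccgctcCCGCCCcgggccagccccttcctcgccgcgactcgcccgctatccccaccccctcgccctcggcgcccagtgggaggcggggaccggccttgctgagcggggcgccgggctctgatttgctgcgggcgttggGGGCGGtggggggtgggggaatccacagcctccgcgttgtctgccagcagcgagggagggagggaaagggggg
Col6a5: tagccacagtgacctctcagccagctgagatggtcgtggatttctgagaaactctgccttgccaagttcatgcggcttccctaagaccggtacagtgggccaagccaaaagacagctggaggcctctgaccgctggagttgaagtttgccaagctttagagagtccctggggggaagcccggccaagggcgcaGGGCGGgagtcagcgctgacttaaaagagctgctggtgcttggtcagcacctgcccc
Col5a1 held 2 GC boxes and Col6a5 held 1, and neither held the other motifs. Over the 38 collagen windows, GGGCGG occurred in 57.9%, CCAAT in 34.2% and TATAAA in 13.2%. Over all 32851 windows of the same 250 bases the shares were 32.7%, 33.9% and 12.4%. A match is a description of the letters only.

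Spleen collagen transcripts were dominated by a few genes. Col4a1 supplied 19.0% of all collagen counts, Col14a1 15.9%, Col1a2 14.3% and Col4a2 12.9%. By class, the fibrillar genes took 34.0%, the type IV genes 32.4%, the FACIT genes 19.0% and the type VI and related beaded filament genes 7.59%. The share of the type IV genes ran from 26.0% in Fpr2KO replicate 2 to 38.5% in Fpr2KO replicate 1, with 28.2% to 36.5% in WT.

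To compare levels between genes, CPM was divided by the length of the longest coding transcript in kilobases. On this per-length scale the order was Col4a1, Col1a2, Col14a1, Col4a2, Col3a1 and Col1a1. Col4a1 stood at 20.3 ± 6.30 CPM per kilobase in WT (SD, n = 3) and 20.7 ± 6.26 in Fpr2KO (SD, n = 4). Col1a2 stood at 17.1 ± 3.76 and 20.1 ± 1.42, Col14a1 at 17.5 ± 2.56 and 17.4 ± 2.39, and Col4a2 at 14.0 ± 3.61 and 14.4 ± 4.04, so the SDs of these 4 neighbours overlapped within each group apart from Col1a2 and Col4a2 in Fpr2KO, whose ranges of mean ± SD nearly met. Below them came Col3a1 at 8.66 ± 1.75 and 9.48 ± 1.57, then Col1a1 at 4.84 ± 1.70 and 6.67 ± 1.57. When all annotated exons were used for the length, Col1a2 moved from place 2 to place 4, since its exons cover 12426 bases against 5348 in that transcript.

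**Figure D1:**
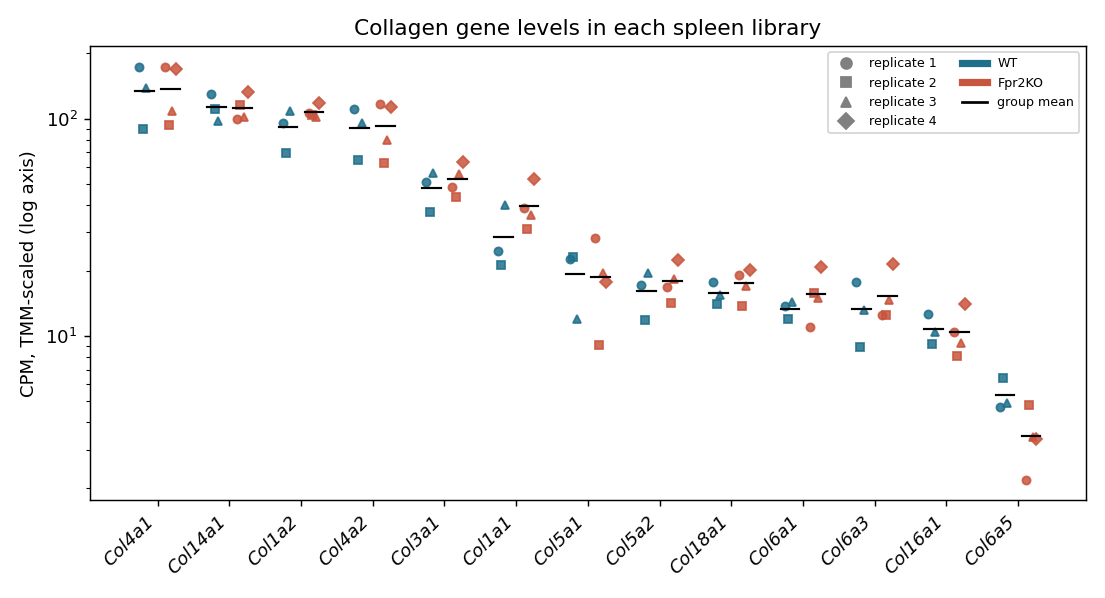
CPM (TMM-scaled, log axis) of the 12 collagen genes with the highest mean and of Col6a5, one marker per library, blue for WT (n = 3) and red for Fpr2KO (n = 4), with black bars at the group means. For each of the 13 genes the markers of the groups overlap.

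The design compares spleens with and without Fpr2, and for collagen genes no difference between the groups passed the test. In edgeR's quasi-likelihood test, adjusted over 16089 genes, 0 of 31 tested collagen genes passed, with 0 also in DESeq2 and 0 in limma-voom. DESeq2 gave no adjusted p for 10 of its 41 collagen genes, so these could not pass there. The edgeR test called 6 genes in all, or 0.0373% of those tested, a share at which 31 genes would be expected to hold none. At an unadjusted p under 0.05 there was 1 collagen gene, Col6a5, against 4.98% of all genes. No tested collagen gene had groups that did not overlap, against 5.91% of all genes (2.73% higher and 3.18% lower in Fpr2KO). Fitted log2 fold changes (Fpr2KO minus WT) were above 0 for 18 and below 0 for 13 members, with a median of 0.04, while 48.6% of all genes were above 0 and 51.4% below, with a median of 0.00. This split turned on single libraries, with 12 of 32 members above 0 and a median of -0.04 without WT replicate 2, 23 of 32 and 0.17 without WT replicate 1, and 15 of 30 and 0.00 without Fpr2KO replicate 4. The median was 0.10 without WT replicate 3, 0.11 without Fpr2KO replicate 1, 0.17 without Fpr2KO replicate 2 and 0.10 without Fpr2KO replicate 3. Without the libraries rich in acinar or fat cell genes (Fpr2KO replicates 1 and 2 and WT replicate 3) it was 0.21, 21 of 31 were above 0 and again 0 passed. The part of those marker genes' source in the collagen values was not tested. In whole tissue, fewer cells of a type and less RNA per cell cannot be told apart.

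**Figure D2:**
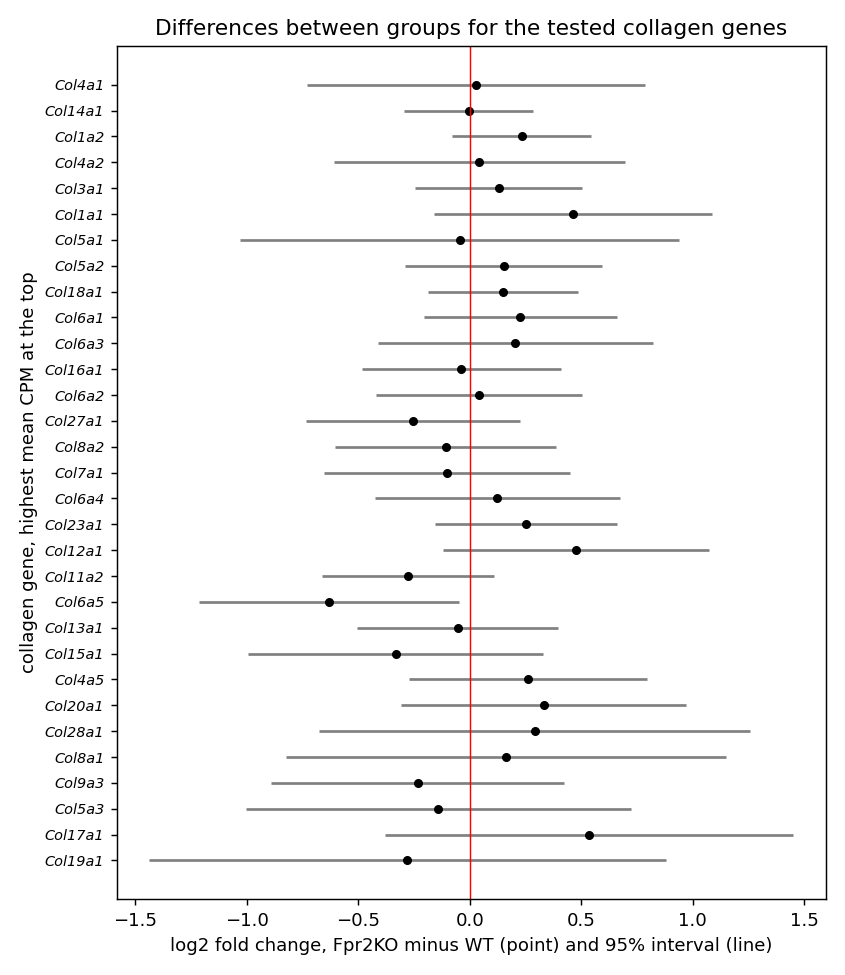
Log2 fold change (Fpr2KO minus WT, point) with its 95% interval (line) for the 31 tested collagen genes, ordered from the highest mean CPM at the top, from edgeR's fit of 3 WT and 4 Fpr2KO libraries. Of the intervals, 30 cross 0, and that of Col6a5 ends at -0.05 before adjustment over all genes.

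How large a difference these libraries could have hidden varied among the genes. The 95% interval, taken from edgeR's standard error without adjustment over genes, lay within 1 log2 unit of 0 for 22 of the 31, and for 10 of the 12 highest. It was narrowest among the 12 highest for Col14a1 (-0.29 to 0.29) and widest for Col5a1 (-1.03 to 0.94). The other member of the 12 with an interval beyond 1 log2 unit was Col1a1 (-0.16 to 1.09).

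Type I collagen, the fibre of tendon, bone and capsule, is built of a pair of alpha 1 chains from Col1a1 and a single alpha 2 chain from Col1a2. Col1a1 (chromosome 11, 94936224 to 94953042) had 24.7, 21.2 and 40.1 CPM in WT replicates 1 to 3 and 38.7, 31.0, 35.9 and 52.7 in Fpr2KO replicates 1 to 4. WT replicate 3 lay above 3 of the 4 Fpr2KO libraries, while the other WT libraries lay below all 4. Its log2 fold change was 0.46 (SE 0.26, edgeR adjusted p = 1.0), and with single libraries left out it ranged from 0.29 without WT replicate 2 or without Fpr2KO replicate 4 (edgeR adjusted p = 1.0 in both) to 0.79 without WT replicate 3 (edgeR adjusted p = 0.407). It was 0.96 without Fpr2KO replicates 1 and 2 and WT replicate 3 (edgeR adjusted p = 0.131). Col1a2 (chromosome 6, 4504814 to 4541544) had 96.1, 69.7 and 109.1 CPM in WT and 106.0, 104.6, 101.4 and 118.7 in Fpr2KO, with WT replicate 2 the lowest and Fpr2KO replicate 4 the highest, as for Col1a1. Its log2 fold change of 0.23 (edgeR adjusted p = 1.0, SE 0.14) was 0.07 without WT replicate 2 (edgeR adjusted p = 1.0). It was 0.38 without WT replicate 3 (edgeR adjusted p = 0.688). Without Fpr2KO replicates 1 and 2 and WT replicate 3 it was 0.43 (edgeR adjusted p = 0.4775).

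Col3a1, whose product forms the fine reticular fibres together with type I, had 51.3, 37.3 and 56.0 CPM in WT and 48.4, 43.4, 55.9 and 63.4 in Fpr2KO. WT replicate 2 was again lowest and Fpr2KO replicate 4 highest, and the groups overlapped (log2 fold change 0.13, SE 0.17, edgeR adjusted p = 1.0). The Col3a1 value was -0.02 without WT replicate 2, 0.03 without Fpr2KO replicate 4 and 0.25 without WT replicate 3. Type V collagen sets the diameter of type I fibrils. Its gene Col5a2 had 17.2, 11.8 and 19.4 CPM in WT and 16.8, 14.2, 18.3 and 22.4 in Fpr2KO, the same order of extremes. Its partner gene Col5a1 differed in pattern, with 22.6, 23.1 and 11.9 CPM in WT and 28.1, 9.12, 19.5 and 17.8 in Fpr2KO. The lowest Col5a1 values were those of Fpr2KO replicate 2 and WT replicate 3, and the highest was that of Fpr2KO replicate 1, a range of 3.08-fold that ran across both groups (log2 fold change -0.05, SE 0.41, edgeR adjusted p = 1.0). Exons of 2 other genes, 2810430I11Rik and Gm13372, cover 2.5% of the Col5a1 exon bases, and with the strand setting of the counting unknown their reads could not be told apart from it.

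The remaining fibrillar genes were lower in level. Col27a1 ran from 7.01 to 12.4 CPM with a log2 fold change of -0.26, and Col11a2, a minor chain known best from cartilage, from 5.47 to 9.24 CPM with -0.28. Col5a3 stayed under 1 CPM in every library. Of the 8 tested fibrillar genes, 4 had a fitted value above 0 and 4 below, with a median of 0.04.

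Type IV collagen is the sheet-forming collagen of basement membranes, and its most widespread trimer joins a pair of alpha 1 chains with an alpha 2 chain. Col4a1 had 172.9, 90.0 and 139.2 CPM in WT and 173.9, 93.6, 108.7 and 170.1 in Fpr2KO. Col4a2 had 110.7, 64.9 and 95.3 CPM in WT and 116.6, 62.5, 80.3 and 112.8 in Fpr2KO. Both genes were low in replicate 2 of each group and high in WT replicate 1 and Fpr2KO replicates 1 and 4, and the spread within a group was far wider than the difference between group means. The log2 fold changes were 0.03 (SE 0.31) and 0.04 (SE 0.27), with an edgeR adjusted p of 1.0 for each. The summed CPM of the 7 smooth muscle genes also had its lowest values in replicate 2 of each group (257.2 in WT and 228.0 in Fpr2KO, against 328.4 to 447.7 elsewhere), and its part in the type IV levels was not tested. The 8 endothelial genes summed to 549.9 to 701.9 CPM in WT and 545.0 to 605.3 CPM in Fpr2KO. Of these genes, 1 was fitted higher and 7 lower in Fpr2KO, and 0 passed edgeR's test. Among the 7, Lyve1 had a log2 fold change of -1.89 (edgeR adjusted p = 0.479), and the others lay between -0.13 and -0.01. Lyve1 had 1.41 to 2.83 CPM in WT and 0.24 to 0.83 CPM in Fpr2KO.

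The other type IV chains, known from kidney, eye and skin basement membranes, were scarce. Col4a5 had 1.91 to 3.26 CPM and was the only one of them tested (log2 fold change 0.26, edgeR adjusted p = 1.0). Col4a6 had 50 reads over the 7 libraries, Col4a4 had 44 and Col4a3 had 12, and the filter on low counts left these 3 out of the test. Of the head-to-head pairs, Col4a1 and Col4a2 were thus among the 4 most counted collagen genes, while Col4a3 and Col4a4 stayed under 1 CPM in every library. Exons of other genes, the 22 shared bases included, cover 0.982% of the Col4a2 exon bases and 0.295% of those of Col4a1.

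Across the 7 libraries the ratio of Col4a1 to Col4a2, per length, stayed between 1.32 and 1.52. It was 1.43 ± 0.0856 in WT (SD, n = 3) and 1.43 ± 0.0710 in Fpr2KO (SD, n = 4). Among 7 pairs of chains known to assemble with each other, chosen after their values had been seen, this pair had the highest correlation of log2 levels (Pearson r = 0.990, exact permutation p = 0.00179, adjusted over 7 pairs p = 0.00625, Spearman rho = 0.929, exact permutation p = 0.00675, adjusted p = 0.0236, two-sided, n = 7). It was 0.993 without WT replicate 2 and Fpr2KO replicate 2, the libraries farthest from the median. Chains of different collagen types were not compared, so whether such correlation is particular to chains that assemble was not tested. For Col1a1 with Col1a2, r was 0.874 (exact permutation p = 0.00119, adjusted p = 0.00625) and rho 0.964 (exact permutation p = 0.00278, adjusted p = 0.0194, n = 7), and r was 0.870 without WT replicate 2 and Fpr2KO replicate 4. Their per-length ratio ran from 0.231 in WT replicate 1 to 0.400 in Fpr2KO replicate 4, so Col1a1 transcripts were fewer than those of Col1a2 in every library.

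The type V chains did not move together in these libraries. Pearson's r for Col5a1 with Col5a2 was -0.05 (exact permutation p = 0.918, adjusted p = 0.918) and Spearman's rho -0.36 (exact permutation p = 0.444, adjusted p = 0.519, n = 7), with r at -0.54 without Fpr2KO replicate 2 and WT replicate 3. Their per-length ratio spanned a range of 3.18-fold, against 1.154-fold for Col4a1 and Col4a2. Of the type VI chains, Col6a2 with Col6a3 gave r = 0.865 (exact permutation p = 0.0133, adjusted p = 0.0310) and rho = 0.750 (exact permutation p = 0.0663, adjusted p = 0.155, n = 7), which rested on Fpr2KO replicate 4 and WT replicate 1, since r was 0.452 without them. Col6a1 had r = 0.737 with Col6a2 and 0.727 with Col6a3 (exact permutation, adjusted p = 0.0897 for each), and rho of 0.50 and 0.464 (adjusted p = 0.423 for each). Without the 2 libraries farthest from the median, Fpr2KO replicates 4 and 1, these r values were 0.291 and 0.544. Col8a1 with Col8a2 gave -0.04 (exact permutation, adjusted p = 0.918), with rho at -0.07 (adjusted p = 0.906), and r was 0.445 without Fpr2KO replicates 2 and 3.

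**Figure D3:**
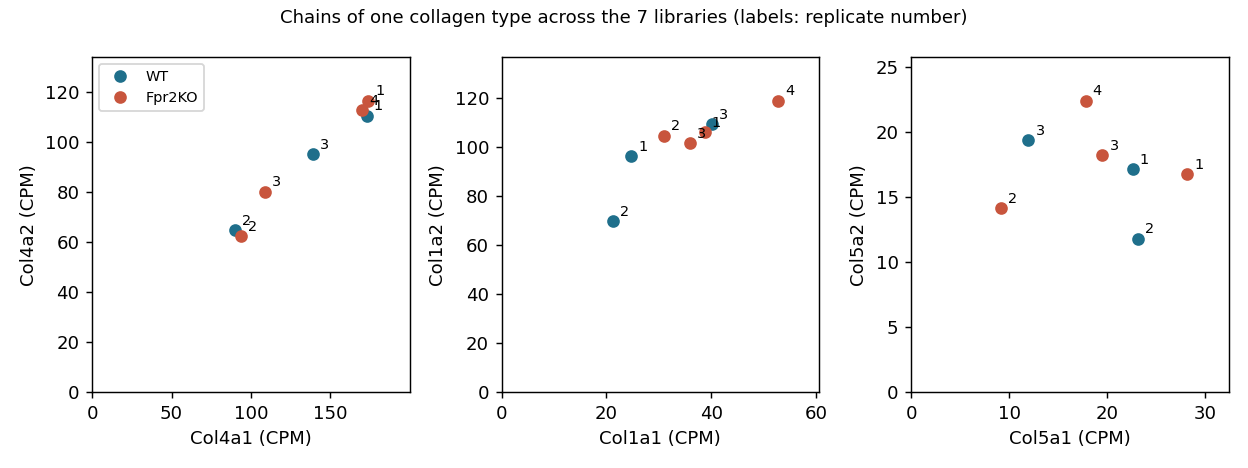
CPM of paired chains in the 7 libraries, Col4a1 against Col4a2, Col1a1 against Col1a2 and Col5a1 against Col5a2, blue for WT and red for Fpr2KO, with replicate numbers beside the points and both axes starting at 0. The type IV points lie close to a line (r = 0.990), the type V points do not (r = -0.05).

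Type VI collagen forms beaded filaments that link cells to the fibrous matrix, with the classical chains encoded by Col6a1, Col6a2 and Col6a3. Col6a1 had 13.7, 11.9 and 14.3 CPM in WT and 11.0, 15.7, 14.9 and 20.8 in Fpr2KO. Col6a3 had 17.8, 8.91 and 13.1 CPM in WT and 12.5, 12.5, 14.6 and 21.5 in Fpr2KO. Fpr2KO replicate 4 was the highest library for both, and the groups overlapped. Their log2 fold changes were 0.23 (SE 0.19) and 0.21 (SE 0.27), and Col6a2, between 7.86 and 13.7 CPM, was at 0.04. Each of these 3 had an edgeR adjusted p of 1.0. Without Fpr2KO replicate 4 the Col6a1 value was 0.06 and that of Col6a3 -0.01, and Col6a3 was at -0.01 without WT replicate 2 and at 0.47 without WT replicate 1.

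Col6a5 encodes a further alpha chain of type VI collagen that can take the place of the alpha 3 chain. It had 4.69, 6.42 and 4.92 CPM in WT and 2.18, 4.83, 3.44 and 3.34 in Fpr2KO. Fpr2KO replicate 2 lay within the WT range and the other 3 Fpr2KO libraries below it. The log2 fold change was -0.63 (SE 0.26, 95% interval -1.21 to -0.05), with means of 5.35 ± 0.939 CPM in WT (SD, n = 3) and 3.44 ± 1.08 in Fpr2KO (SD, n = 4). It did not pass over all genes (edgeR adjusted p = 0.979, with edgeR adjusted p from 0.785 to 1.0 when single libraries were left out and log2 fold changes from -0.84 to -0.45). Its neighbour on chromosome 9, Col6a4, ran from 4.33 to 9.85 CPM with a log2 fold change of 0.12, and Col6a6, the third member of that cluster, had 61 reads in all and was left out by the filter on low counts. Col28a1, which shares the von Willebrand type domains of type VI, ran from 0.852 to 2.84 CPM with no separation of the groups.

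Col14a1, a FACIT collagen that binds to the surface of type I fibrils, was the second most counted collagen gene. It had 130.3, 111.1 and 97.4 CPM in WT and 99.4, 116.3, 102.0 and 132.9 in Fpr2KO. The groups covered nearly the same range, and the log2 fold change was 0.00 (SE 0.13, edgeR adjusted p = 1.0). Its highest value was 1.36 times its lowest, the smallest range among the 12 highest collagen genes. Col16a1, another FACIT gene, had 12.7, 9.18 and 10.4 CPM in WT and 10.5, 8.10, 9.30 and 14.0 in Fpr2KO, again with Fpr2KO replicate 4 highest (log2 fold change -0.04, SE 0.20, edgeR adjusted p = 1.0). Col12a1, a FACIT gene known from tendon and from tissue under load, had 7.78, 4.46 and 6.71 CPM in WT and 7.36, 5.96, 11.2 and 10.6 in Fpr2KO. Fpr2KO replicates 3 and 4 lay above all WT libraries and the other Fpr2KO libraries within them (log2 fold change 0.48, SE 0.27, edgeR adjusted p = 1.0). Col20a1, Col9a3 and Col19a1 lay between 0.294 and 3.41 CPM.

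Col18a1 and Col15a1 encode the multiplexins, collagens of vessel basement membranes whose ends can be cleaved to endostatin-like fragments. Col18a1 had 17.6, 14.1 and 15.5 CPM in WT and 19.1, 13.7, 17.0 and 20.0 in Fpr2KO, with Fpr2KO replicate 2 below and replicates 1 and 4 above the WT range (log2 fold change 0.15, SE 0.15, edgeR adjusted p = 1.0). Col15a1 ran from 1.97 to 4.25 CPM with a log2 fold change of -0.33. The network collagen gene Col8a2 ran from 6.12 to 12.6 CPM (-0.11), and its partner Col8a1 from 0.429 to 1.96 CPM (0.16). Col7a1, the anchoring fibril collagen of skin, ran from 5.35 to 12.1 CPM (-0.10), with WT replicates 3 and 1 at its extremes.

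Of the transmembrane collagens, Col23a1 ran from 5.90 to 9.87 CPM (log2 fold change 0.25) and Col13a1 from 2.45 to 3.22 CPM (-0.05). Col17a1, a protein of the hemidesmosomes of epithelia, stayed under 1 CPM (0.54, SE 0.41). None of the members described in this and the previous paragraph passed edgeR's test. Apart from Col6a6, Col4a6, Col4a4 and Col4a3, the members with 10 or more reads that the filter on low counts left out were Col22a1 (42 reads), Col26a1 (32) and Col9a2 (17). Without that filter edgeR tested all 41 collagen genes with at least 1 read, and 0 passed. Col24a1, Col11a1 and Col25a1 had under 10 reads. Col2a1 and Col9a1, of cartilage, and Col10a1, of growth plate cartilage, had 0 reads in all 7 libraries, which with 3 counts as the limit allows up to between 0.156 and 0.201 CPM per library for counting error alone.

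**Figure D4:**
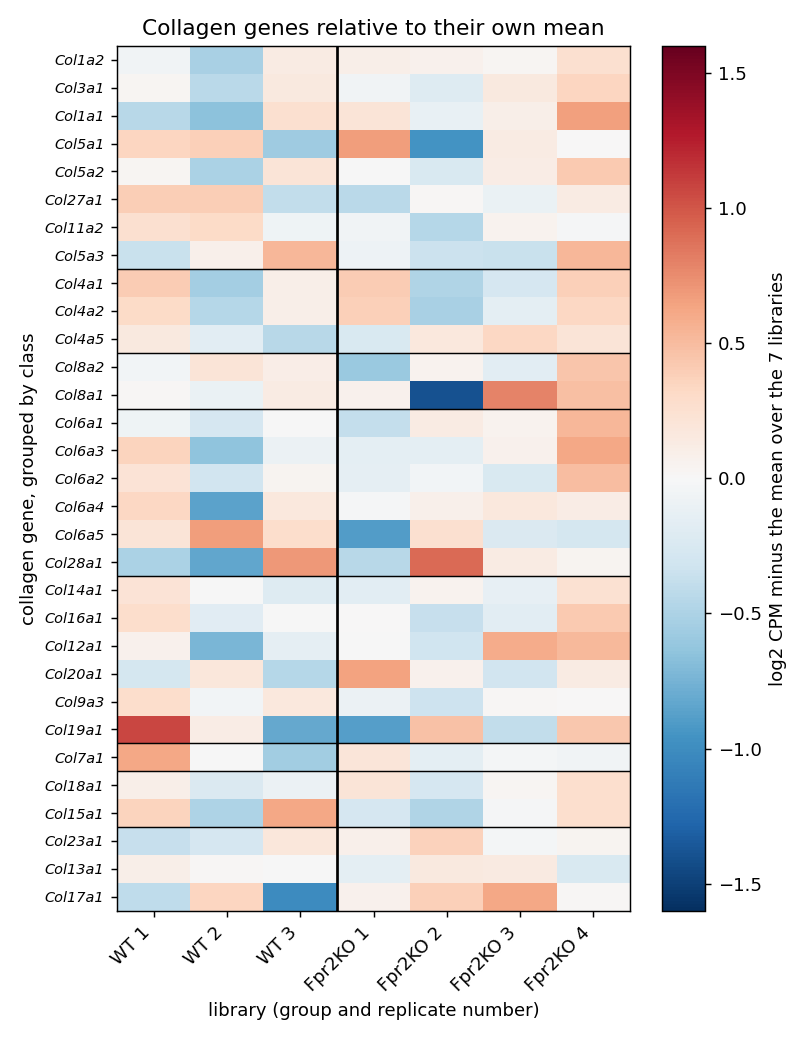
Log2 CPM of the 31 tested collagen genes minus their own mean over the 7 libraries (colour, red above and blue below the mean), with genes in rows grouped by class and libraries in columns, WT on the left of the vertical line. Fpr2KO replicate 4 holds the highest value of 12 genes and WT replicate 2 the lowest value of 11.

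Single libraries stood out more than the groups. Fpr2KO replicate 4 had the highest value for 12 of the 31 tested collagen genes, or 38.7%, against 10.9% of all tested genes. WT replicate 2 had the lowest value for 11, or 35.5%, against 15.6% of all tested genes. The summed CPM of all collagen genes was 788.8, 559.7 and 709.9 in WT and 761.7, 612.6, 669.1 and 869.4 in Fpr2KO, so that the extremes were again WT replicate 2 and Fpr2KO replicate 4. Those libraries also stood apart in other genes. Fpr2KO replicate 4 had the highest mesothelial sum given above, with Msln at 8.76 CPM against 2.03 to 4.02 elsewhere, and WT replicate 2 had the highest share of haemoglobin counts, 7.95% against 1.01% to 4.65%. Their part in the collagen values was not tested.

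The sign of several fitted log2 fold changes near 0 also turned on single libraries. Col4a1 was at -0.19 and Col4a2 at -0.15 without WT replicate 2, and at 0.25 and 0.22 without WT replicate 1. Col5a1 was at -0.30 without Fpr2KO replicate 1 and at 0.18 without Fpr2KO replicate 2. Col5a2 was at -0.03 without WT replicate 2 and at 0.31 without WT replicate 3, and Col16a1 was at -0.21 without Fpr2KO replicate 4 and at 0.10 without WT replicate 1. Col14a1 stayed between -0.10 and 0.11. None of these genes passed edgeR's test with any single library left out.

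Genes that make, process, bind and degrade collagen were set beside the collagen genes from 7 lists, and 0 of their 99 tested genes passed edgeR's test, against the 0.0373% of all genes given above. At an unadjusted p under 0.05 there were 6 of them, against 4.98% of all genes. The groups did not overlap for 2 of 19 tested synthesis genes, 2 of 10 receptor genes and 1 of 13 breakdown genes. The same held for 1 of 16 collagen-binding genes and 1 of 15 basement membrane partners. In the processing and fibroblast activation lists it held for none, and over all tested genes for 5.91%. DESeq2 called 60 of 28415 genes in all and 1 of 106 list genes, the gelatinase gene Mmp9 (log2 fold change -1.02, DESeq2 adjusted p = 0.0180). In limma-voom 0 list genes passed.

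In the list of synthesis genes, which covers the prolyl and lysyl hydroxylases and the chaperones of procollagen in the endoplasmic reticulum, 7 of 19 tested genes had fitted values above 0 and 12 below, with a median log2 fold change of -0.04. Serpinh1, the collagen-specific chaperone of the endoplasmic reticulum, ran from 78.1 to 135.5 CPM with a log2 fold change of 0.05. Creb3l1, a membrane-bound transcription factor known to drive Col1a1 in bone, had 8.91 ± 0.624 CPM in WT (SD, n = 3) and 5.19 ± 1.44 in Fpr2KO (SD, n = 4). Its groups did not overlap, as for Crtap (-0.15), a partner of prolyl 3-hydroxylation, but it did not pass over all genes (log2 fold change -0.78, SE 0.22, edgeR adjusted p = 0.644). Colgalt2, which adds galactose to hydroxylysine, was at -0.68 and the prolyl 3-hydroxylase genes P3h3 and P3h2 at -0.25 and 0.23.

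Among genes that process or cross-link procollagen, 10 of 11 had fitted values above 0, with a median of 0.18, where 48.6% of all genes were above 0. The values ran from -0.09 to 0.53, and some lay near 0, such as Bmp1 (0.01) and Pcolce (0.06). Whether this split turned on single libraries, as for the collagen genes, was not tested. Pcolce2, an enhancer of procollagen C-proteinase, had the lowest p of the list (log2 fold change 0.40, SE 0.15, edgeR adjusted p = 0.932), and its groups overlapped. The lysyl oxidase genes Loxl2 and Loxl1, whose enzymes start the cross-links between collagen molecules, were at 0.53 and 0.39, and Adamts14, an N-propeptidase, at 0.23. None of the 11 passed.

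The collagen receptor list was split, with 5 of 10 above 0 and 5 below. Lair1, an inhibitory receptor of leukocytes that binds collagen, had 70.2 ± 3.62 CPM in WT (SD, n = 3) and 89.4 ± 3.36 in Fpr2KO (SD, n = 4). Every Fpr2KO library lay above every WT library, yet with a log2 fold change of 0.35 (SE 0.08) it did not pass over all genes (edgeR adjusted p = 0.479). Ddr1, a receptor tyrosine kinase for collagen, also had groups that did not overlap, at 22.6 ± 4.6 and 31.1 ± 2.59 CPM (SD, n = 3 and n = 4; log2 fold change 0.46, SE 0.14, edgeR adjusted p = 0.753). Itga10 was at -0.69 and Mrc2, the endocytic collagen receptor, at 0.46, and neither passed.

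In the list of breakdown genes the neutrophil collagenase gene Mmp8 (-1.05, SE 0.51) and the gelatinase gene Mmp9 (-1.03, SE 0.30) had the most negative values, and neither passed edgeR's test (edgeR adjusted p = 1.0 and 0.85). Mmp9 had 151.3, 116.1 and 80.4 CPM in WT and 58.5, 34.1, 66.9 and 68.0 in Fpr2KO, with no overlap between the groups. Both are known as granule proteases of neutrophils. Timp1, an inhibitor of these proteases, was at 0.54 and the fibroblast gelatinase gene Mmp2 at -0.29, without passing. The median of the 13 tested genes was -0.05, with 6 above 0.

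Among collagen-binding matrix proteins 10 of 16 had fitted values above 0 (median 0.05), with Matn2 at 0.23, Ogn at 0.37, Tnxb at 0.31 and Sparc at 0.20. The groups did not overlap for Matn2. Among the laminins, nidogens and other partners of type IV collagen, 8 of 15 were above 0 (median 0.02). Nid2, which links laminin to type IV collagen, had 9.17 ± 1.56 CPM in WT (SD, n = 3) and 13.4 ± 2.06 in Fpr2KO (SD, n = 4) with no overlap (log2 fold change 0.55, SE 0.17, edgeR adjusted p = 0.753), and its relative Nid1 ran from 68.4 to 124.5 CPM with overlap. The laminin chain genes Lama1 and Lamc1 were at 0.57 and -0.21. In the list of fibroblast activation and TGF-beta genes, 8 of 15 were above 0 (median 0.02), and the 4 with the lowest p were Pdgfa (0.26), Ccn2 (-0.19), Acta2 (-0.26) and Pdgfb (-0.09). None of the genes in these 3 lists passed.

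**Figure D5:**
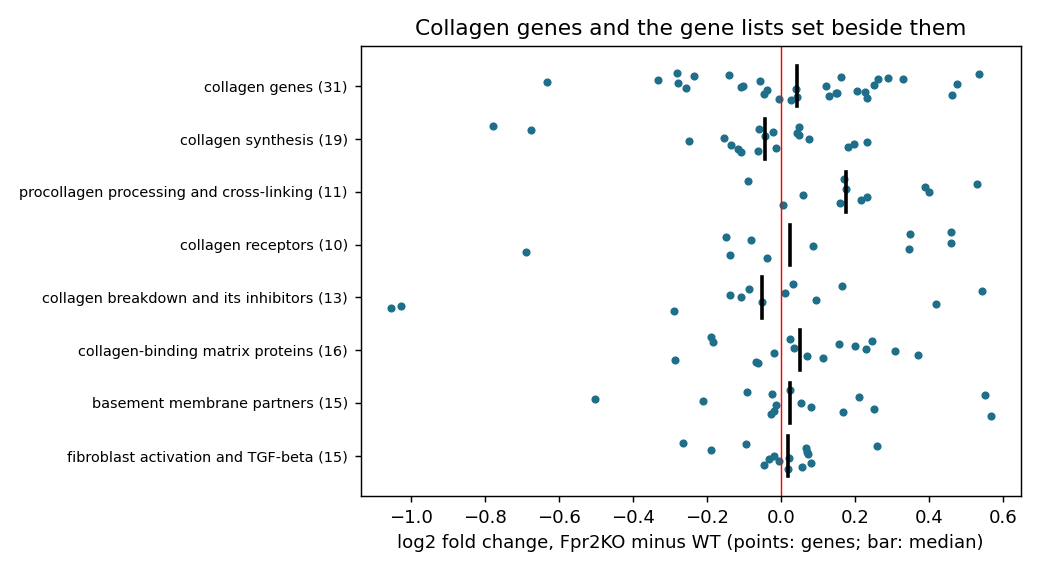
Log2 fold changes (Fpr2KO minus WT) from edgeR's fit for the 31 tested collagen genes and for the tested genes of 7 lists, 1 point per gene with a black bar at the median of each list and the number of genes in brackets. The medians lie between -0.05 and 0.18, and none of the points passed the test over all genes.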

How the data were processed

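Libraries of polyadenylated RNA from mouse spleen, 3 WT and 4 Fpr2KO, were analysed. The deposited values were raw read counts per Ensembl gene, made by the authors with HTSeq 0.10.0 on mm10 (GRCm38) after FastQC 0.10.1, per the submitters' processing notes. The aligner is not given in the sources used here, nor are the annotation release and strand setting. Symbols, positions and lengths came from GENCODE M21, matched on gene ID (52133 of 55414 IDs, carrying 99.8% of the counts).

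Fpr2KO was compared with WT by edgeR 4.0.16 in R 4.3.3 (quasi-likelihood F test, robust estimation, TMM scaling, filterByExpr defaults), with Benjamini-Hochberg adjustment over all 16089 tested genes and a threshold of 0.05. The step was tested on simulated data. Standard errors are the log2 fold change divided by the square root of F. Chain pairs were compared by exact permutation of the 7 libraries. Libraries of a group differed by more than counting noise, so none was treated as a repeat deposit of another. Each was counted as 1 replicate, as labelled.

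Members and lists were chosen with earlier results of these data known. Values in every library are given for the 12 collagen genes with the highest mean CPM and for those with an unadjusted p under 0.05. Col12a1 and Mmp9 were added after their values were seen. From each list up to 4 genes with the lowest p are named, apart from 1 that is not reported here. Serpinh1 and Nid1 were also named after their values were seen. Crtap and the endothelial marker Lyve1 were named likewise. Each comparison was repeated with DESeq2 1.42.0, with limma-voom (limma 3.58.1, quality weights), with scaling by RLE or upper quartile, other filters, left-out libraries, a replicate block, other library sizes and robust estimation off.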

Additional observations from a re-analysis of the deposited data

How the results depend on the processing

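No collagen gene passed under any of the 18 alternatives, though DESeq2 gave no adjusted p for 10 of its 41 collagen genes. The 12 collagen genes with the highest mean CPM and Col6a5 kept their call under each alternative. The count of all genes called was 6 in the edgeR comparison, 60 with DESeq2, 21 without a low count filter and 18 without Fpr2KO replicates 1 and 2 and WT replicate 3. It was 5 to 15 with single libraries left out, where leaving out WT replicate 1 gave 10 and WT replicate 3 gave 15. The median log2 fold change of the tested collagen genes was 0.04, and 0.21 without Fpr2KO replicates 1 and 2 and WT replicate 3, where 7 of 31 (22.6%) had an unadjusted p under 0.05, against 8.72% of all genes, and the lowest adjusted p was 0.131, for Col1a1 (log2 fold change 0.96). With single libraries left out the median ran from -0.04 to 0.17. Without WT replicate 3, 5 of 32 collagen genes (15.6%) had an unadjusted edgeR p under 0.05, against 6.34% of all genes. This was the largest such count with a single library left out. The cause was not tested. With the replicate number as a block the count of all genes called was 2, the collagen count 0 and the collagen median -0.02. The labels do not say whether replicate numbers pair the libraries. Deviations from the group means correlated at 0.08, -0.43 and -0.07 for same-numbered libraries, and from -0.44 to 0.44 for the others. With so few libraries, and deviations centred within each group, these values cannot settle whether the libraries were paired. The median of all genes was 0.00 with RLE and 0.01 with upper-quartile scaling. The filter on low counts left out 7 collagen genes with 10 or more reads and the 6 with fewer, and without it 41 were tested.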

Other observations

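The libraries with low and high Col5a1 also differed in their haemoglobin share, a pattern noticed in these values. Haemoglobin genes took 3.93%, 7.95% and 1.39% of counts in WT replicates 1 to 3 and 4.65%, 1.01%, 1.83% and 2.40% in Fpr2KO replicates 1 to 4. The 2 libraries with the lowest shares, Fpr2KO replicate 2 and WT replicate 3, had the lowest Col5a1 values, 9.12 and 11.9 CPM, and the 3 with the highest shares had the highest, 22.6 to 28.1 CPM. What links these values was not tested.

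The mesenchymal genes Tcf21 and Tlx1, known from the development of the spleen, had the lowest p of 11 reticular fibroblast markers, of which 6 had fitted values above 0 and 5 below. The summed CPM of the 11 was 655.2, 632.9 and 797.0 in WT and 650.9, 922.0, 789.4 and 679.9 in Fpr2KO, so the groups overlapped. Pdgfra (-0.17), Ccl19 (-0.14), Dpt (-0.19), Dcn (-0.06) and Lum (-0.28) were the 5 with negative log2 fold changes. Tcf21 had 27.2, 43.1 and 44.1 CPM in WT and 40.1, 63.3, 57.4 and 74.8 in Fpr2KO (log2 fold change 0.63), and Tlx1 had 18.9, 24.8 and 27.0 CPM in WT and 30.9, 25.8, 28.1 and 38.6 in Fpr2KO (0.39). The groups overlapped for both genes, and neither passed edgeR's test (edgeR adjusted p = 0.986 for each). Both were singled out after their values were seen.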
